A study of Mus musculus with 28 samples.

Results

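The small proline-rich protein genes followed through skin wound healing were Sprr1a, Sprr1b, Sprr2b, Sprr2d, Sprr2e, Sprr2h, Sprr2i, Sprr2k, Sprr3 and Sprr4. These 10 genes were taken by name from a table of 29068 genes, and all 10 were among the 18107 genes that had enough counts to be fitted. The genes were chosen with their levels on these days known, so their values are given below as a description with no test. Sprr1b and the 6 Sprr2 genes lay above their own control levels in every library of days 3 to 10. Their means on day 3 ran from 1.81 FPKM (counts scaled by gene length and library total) for Sprr2k to 208 FPKM for Sprr2d. They were lower again on days 12 and 14. In the order of days 3, 5, 7 and 10, 28.2%, 23%, 19.9% and 19.5% of all genes fitted lay entirely above the controls. Sprr1a and Sprr4 made up 95.2%, 94.5% and 89.1% of the summed FPKM of the 10 genes on days 0, 12 and 14. They made up 30.9% to 61.7% of it on days 3 to 10, and had their lowest mean level of any day on day 10.

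Small proline-rich proteins are precursors of the cornified envelope, the protein shell that replaces the plasma membrane of keratinocytes as they become the dead outer cells of the epidermis. Transglutaminases join them covalently to loricrin, involucrin and other precursors, in which the short, proline-rich proteins act as flexible bridges. In normal interfollicular skin most members are little expressed, and the family is widely used as a sign of epidermal stress, repair and hyperproliferation. The genes lie together in the epidermal differentiation complex, a gene-dense region that also holds loricrin, involucrin, filaggrin and the late cornified envelope (Lce) genes.

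RNA was sequenced from skin of C57BL/6J mice under natural wound healing, with 4 libraries on each of days 0, 3, 5, 7, 10, 12 and 14, or 28 libraries in all. The same wild-type background (MLKL+/+ in the study) was shared by all groups, and no group carried another allele or agent. The study cut a full-thickness punch wound on the back and took the whole wound site, with its scab and epithelial margins, from young adult mice of both sexes, all of 1 age, and sex is not given per library. The labels name day 0 as the control, whereas the study counts the day of injury as day 1, so day 0 is used here only as the name of the control group. The labels do not say whether the libraries of a day came from separate animals, so that the spread between them may be technical. Wound tissue is a mixture of cells, and in such bulk RNA fewer cells of a type cannot be told apart from less RNA per cell.

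Total counts ranged from 36706513 to 40655764 a library. The control libraries stood apart from each other more than those of any other day, with a median standard deviation (SD) over genes of 0.221 log2 CPM (counts scaled by the library total), against 0.102 to 0.156 on the later days. Control replicates 1 and 4 had a summed level of 6 basal keratinocyte markers of 3150 and 3670 FPKM, against 1750 and 1800 FPKM in replicates 2 and 3, and their 6 fibroblast markers summed to 5120 and 3050 FPKM against 11800 and 11400 FPKM. The 13 hair follicle markers, which included the hair shaft and root sheath keratins, summed to 1110 FPKM in control replicate 1 and to 128 FPKM in replicate 4. The part of this make-up in the Sprr levels of day 0 was not tested. For Sprr1b, Sprr2b and Sprr2e, the changes against day 0 rose by more than 1.5 times when control replicate 1 or 4 was left out, and their day 3 values are given with the range over left-out libraries. Changes between the days of healing are given beside them. Fitted changes are log2 ratios from a model of the counts of all libraries, and their standard error (SE) comes from a spread shared by all days, so it does not carry the larger spread of day 0. The SE was computed as the change divided by the square root of the test's F statistic. It is therefore approximate, above all for large changes and for controls near 0.

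The 10 genes lay on mouse chromosome 3 within 184 kb (mm10, GENCODE M21 annotation). In order along the chromosome they were Sprr2b (chr3:92316620-92318085), Sprr2d (chr3:92339140-92340873), Sprr2e (chr3:92352143-92353449), Sprr2h (chr3:92385685-92387324), Sprr2i (chr3:92407991-92409271) and Sprr2k (chr3:92432582-92433925) on the plus strand, followed by Sprr1b (chr3:92436809-92438789), Sprr3 (chr3:92456502-92458720), Sprr1a (chr3:92483952-92485895) and Sprr4 (chr3:92500263-92500493) on the minus strand. None of the 10 overlapped another annotated gene. The 6 Sprr2 genes had 53.5% to 96.9% identical bases in the 15 pairwise alignments of their coding sequences, and Sprr2e and Sprr2i were the most alike. The first 90 coding bases of each are shown because the Sprr2 rows can only be read apart where their sequences differ. They run 5′ to 3′ from the start codon, and capitals mark a base that differs from that of Sprr2i at the same position.
Sprr2b: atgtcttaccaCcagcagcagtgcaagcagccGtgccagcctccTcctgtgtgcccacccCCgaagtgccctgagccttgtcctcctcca
Sprr2d: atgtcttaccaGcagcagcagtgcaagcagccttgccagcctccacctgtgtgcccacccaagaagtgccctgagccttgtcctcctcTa
Sprr2e: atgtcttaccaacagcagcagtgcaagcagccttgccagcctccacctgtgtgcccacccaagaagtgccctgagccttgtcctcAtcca
Sprr2h: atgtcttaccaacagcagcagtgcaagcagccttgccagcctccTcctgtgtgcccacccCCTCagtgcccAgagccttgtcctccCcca
Sprr2i: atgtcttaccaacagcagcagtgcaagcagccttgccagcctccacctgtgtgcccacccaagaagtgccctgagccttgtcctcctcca
Sprr2k: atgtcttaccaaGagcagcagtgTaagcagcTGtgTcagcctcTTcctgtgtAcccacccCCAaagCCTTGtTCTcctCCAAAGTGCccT
Over this stretch Sprr2e differed from Sprr2i at 1 position and Sprr2d at 2, whereas Sprr2k differed at 29. Positions were compared without gaps, so that a shift of bases counts as many differences. In alignments of the whole coding sequences with gaps, Sprr2k was 75.5% identical to Sprr2i, against 67.7% for Sprr2b and 64.8% for Sprr2h. Despite the likeness, every stretch of 150 bases in the 10 transcripts was found in no other gene of the annotation. Of stretches of 100 bases, 3 of 685 in Sprr2b were shared with Sprr2a1, and 6 of 548 in Sprr2e and 6 of 518 in Sprr2i were shared between these genes. Of stretches of 50 bases, 86.3% in Sprr2b, 95.7% in Sprr2d, 89.8% in Sprr2e and 87.5% in Sprr2i were unique, and all were unique in the other 6 genes. The read length and the handling of reads with several matches are not given in the sources used here, so reads may have been shared among Sprr2b, Sprr2d, Sprr2e, Sprr2i and their relatives, and the levels of these rows are uncertain to that extent.

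Sprr1a and Sprr1b, whose levels went separate ways in the wound, were 78.4% identical over their coding sequences, and no stretch of 50 bases was shared between them. Their first 90 coding bases are shown for this reason, with capitals at the 15 positions where they differ from each other.
Sprr1a: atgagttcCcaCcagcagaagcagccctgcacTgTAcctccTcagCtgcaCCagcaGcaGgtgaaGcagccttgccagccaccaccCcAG
Sprr1b: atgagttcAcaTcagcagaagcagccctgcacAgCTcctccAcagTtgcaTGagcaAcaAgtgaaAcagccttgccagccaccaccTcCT

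The bases before the transcription start were read from RefSeq (GRCm38.p6), where all 10 genes had an entry. In the 250 bases before the start, TGANTCA, the site bound by AP-1 (dimers of Fos and Jun proteins), was present in 8 of the 10 genes, against 6.75% of 32851 mouse promoters. The octamer ATTTGCAT, bound by POU domain factors, was present in all 6 Sprr2 genes and in none of the other 4, against 1.6% of promoters. A TATAAA box was present in 9 genes, against 12.4% of promoters, and GGAAGT, the core of sites for ETS factors such as Ehf and Elf3, was present in Sprr2b, Sprr2k and Sprr3, against 19.7% of promoters. Both strands were searched, and no match overlapped another. The Sprr2 genes share their descent, so their promoters are not separate occurrences of these motifs, and the entry of Sprr4 starts at its coding sequence, so that its window may not hold its promoter. Shown are positions -250 to -21 of Sprr2d, Sprr2h, Sprr1b and Sprr1a, which do not cover every course found below. They run 5′ to 3′ on the strand of the gene, with AP-1, octamer and TATA matches in capitals.
Sprr2d (chr3:92338890-92339119, plus strand): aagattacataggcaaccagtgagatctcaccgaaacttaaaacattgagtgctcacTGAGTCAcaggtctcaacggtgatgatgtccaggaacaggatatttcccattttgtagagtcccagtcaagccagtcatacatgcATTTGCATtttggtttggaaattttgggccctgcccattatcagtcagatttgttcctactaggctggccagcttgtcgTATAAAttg
Sprr2h (chr3:92385435-92385664, plus strand): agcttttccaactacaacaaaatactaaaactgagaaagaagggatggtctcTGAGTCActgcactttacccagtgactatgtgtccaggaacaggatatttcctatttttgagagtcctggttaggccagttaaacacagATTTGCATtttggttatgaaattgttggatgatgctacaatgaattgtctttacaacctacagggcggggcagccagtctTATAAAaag
Sprr1b (chr3:92438800-92439029, minus strand): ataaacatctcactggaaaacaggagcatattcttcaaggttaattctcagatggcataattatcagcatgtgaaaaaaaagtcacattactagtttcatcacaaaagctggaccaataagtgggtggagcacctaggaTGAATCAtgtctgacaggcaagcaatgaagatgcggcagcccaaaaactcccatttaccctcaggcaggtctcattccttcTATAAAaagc
Sprr1a (chr3:92485902-92486131, minus strand): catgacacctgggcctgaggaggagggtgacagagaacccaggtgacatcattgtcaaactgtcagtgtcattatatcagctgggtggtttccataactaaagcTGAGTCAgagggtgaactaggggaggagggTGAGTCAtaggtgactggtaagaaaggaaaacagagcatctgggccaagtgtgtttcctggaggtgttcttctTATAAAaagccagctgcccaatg
In Sprr2d and Sprr2h the AP-1 match was at -193 and -198 and the octamer at -108 and -109, and Sprr2b, Sprr2e, Sprr2i and Sprr2k had both at nearly the same places, from -193 to -196 for the AP-1 match and at -108 or -109 for the octamer. Sprr2k had another AP-1 match at -182. Sprr1b had its AP-1 match at -111 and Sprr1a had AP-1 matches at -146 and -116. A match is a description of the letters in the window and does not show that a factor bound there.

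The summed level of the 10 genes was 314 ± 212 FPKM (SD, n = 4) on day 0, with 49.3 FPKM in the lowest and 488 FPKM in the highest library. It was 855 ± 70.1 FPKM on day 3, the highest of all days, 631 ± 61.9 FPKM on day 5 and 714 ± 78.4 FPKM on day 7. It was 222 ± 26.7 FPKM on day 10, 367 ± 23.5 FPKM on day 12 and 143 ± 8.54 FPKM on day 14. All libraries of days 3, 5 and 7 were above the control libraries, whereas the days from 10 onwards lay within the control range. The low end of that range was control replicate 4 alone. Without it, all libraries of day 14 lay below the controls and day 10 reached below them. Sprr1a and Sprr4 together gave 95.2% ± 6.14 of the summed level in the controls. Their share was 30.9% ± 1.33 on day 3, with 51.7% ± 0.969 at day 5 and 61.7% ± 2.5 at day 7. It was 33.4% ± 1.56 on day 10, and then 94.5% ± 0.521 (day 12) and 89.1% ± 1.99 (day 14). The 6 Sprr2 genes gave 2.16% ± 2.63 of the sum in the controls and 50.3% ± 1.73 on day 3. Their share was 28.2% ± 1.03 at day 5, 22% ± 2.02 at day 7 and 35.1% ± 2.27 on day 10, against 1.83% ± 0.38 and 5.57% ± 1.46 on days 12 and 14. Sprr1b gave 2.69% on day 0, from 16.2% to 31.6% on days 3 to 10, 3.64% on day 12 and 5.38% on day 14. The make-up on day 12 was thus within the range of the control libraries for all of these shares. For Sprr1b this rested on control replicate 4 (7.66%), since replicates 1 to 3 (2.66%, 0.112% and 0.331%) lay below day 12 (3.33% to 3.82%). Sprr1a and Sprr4 together were likewise within it only through replicate 4, the lowest control at 86.4%. The shares depend on the gene lengths, 231 bases for Sprr4 and 790 for Sprr1a, which had 4625 and 22800 counts on day 0. The sum leaves out 4 further Sprr2 rows of the table.

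**Figure D1:**
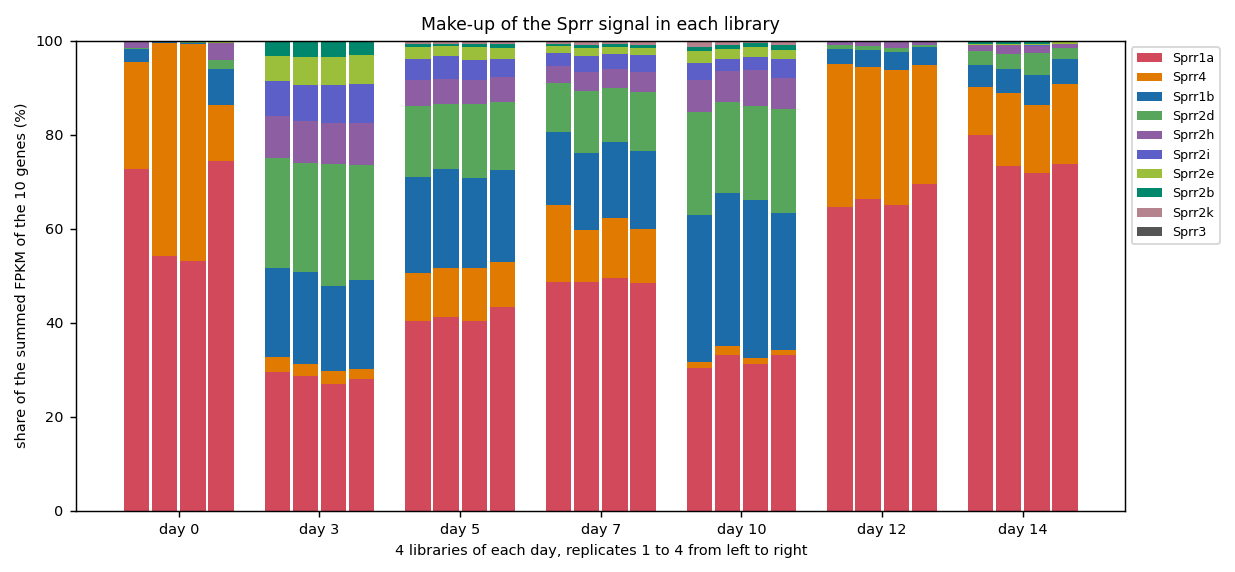
Share of the summed FPKM of the 10 Sprr genes taken by each gene (percent, y axis) in each library, with the 4 libraries of a day side by side along the x axis. Sprr1a and Sprr4 took 86.4% to 99.6% of the sum in the day 0 libraries and 93.8% to 95% in those of day 12, against 29.6% to 32.7% on day 3, where the 6 Sprr2 genes took 48.4% to 52.3%.

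Against day 0, the libraries of day 3 lay entirely above the control libraries for 7 of the 10 genes, as they did for 28.2% of all genes fitted, with overlap judged on log2 CPM after scaling of the libraries (TMM). This held for 8 genes on day 5 (23% of all genes), 9 genes at day 7 (19.9%), 7 genes at day 10 (19.5%), 3 genes at day 12 (18.6%) and 2 genes at day 14 (23.4%), and Sprr2e on day 14 lay above the controls in FPKM but not on this scale. Only Sprr4 on day 10 lay entirely below the control libraries, as did 21.9% of all genes on that day, and no member did on days 3, 5, 7, 12 and 14 (28.6%, 23.2%, 19.3%, 20.2% and 27.3% of all genes). The median fitted log2 change over the 10 genes was 7.01, 6.25 and 6.71 on days 3, 5 and 7, followed by 4.92, 1.42 and 0 on days 10, 12 and 14, whereas the median over all genes fitted stayed between -0.056 and 0.0024. Summing the counts of all Sprr2 rows of the table, with the 4 that are no members, to 1 value left 5 values. Their median was 0.47, 5.02, 5.25, 2.8, 0.27 and 0 over the same days. Each such median is the value of 1 row, Sprr1a on days 3 and 12 and Sprr3 on days 5 and 10. Sprr3 had 15 counts on day 5, 3 on day 10 and none on day 0. With genes that had no count on day 0 set at a bound of 3 counts over its 4 libraries, and genes with at most 3 counts on both days left out, the medians were 5.96 over 9 genes, 6.25 over 10 and 5.88 over 10 for days 3, 5 and 7. For days 10, 12 and 14 they were 5.37 over 9 genes, 1.54 over 9 and 0.61 over 8. These counts and medians come from the contrasts in which the genes were chosen. When control replicates 1 and 4 were left out, a setting added after the data were seen, the same 7, 8, 9 and 7 genes lay above the controls on days 3, 5, 7 and 10 (37.1%, 32.1%, 31.2% and 32.6% of all genes), and 6 and 4 genes did on days 12 and 14 (30.6% and 33%). Sprr4 then lay below the controls on each of the 6 days and Sprr1a on days 10, 12 and 14, that of day 12 on the log2 CPM scale and not in FPKM. In the order of the days, 37.8%, 33%, 29%, 32.8%, 33.9% and 37.2% of all genes lay below these controls. The medians of the fitted changes were 7.95, 7.24, 7.27, 6.02, 1.89 and 0.26 from day 3 to day 14.

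**Figure D2:**
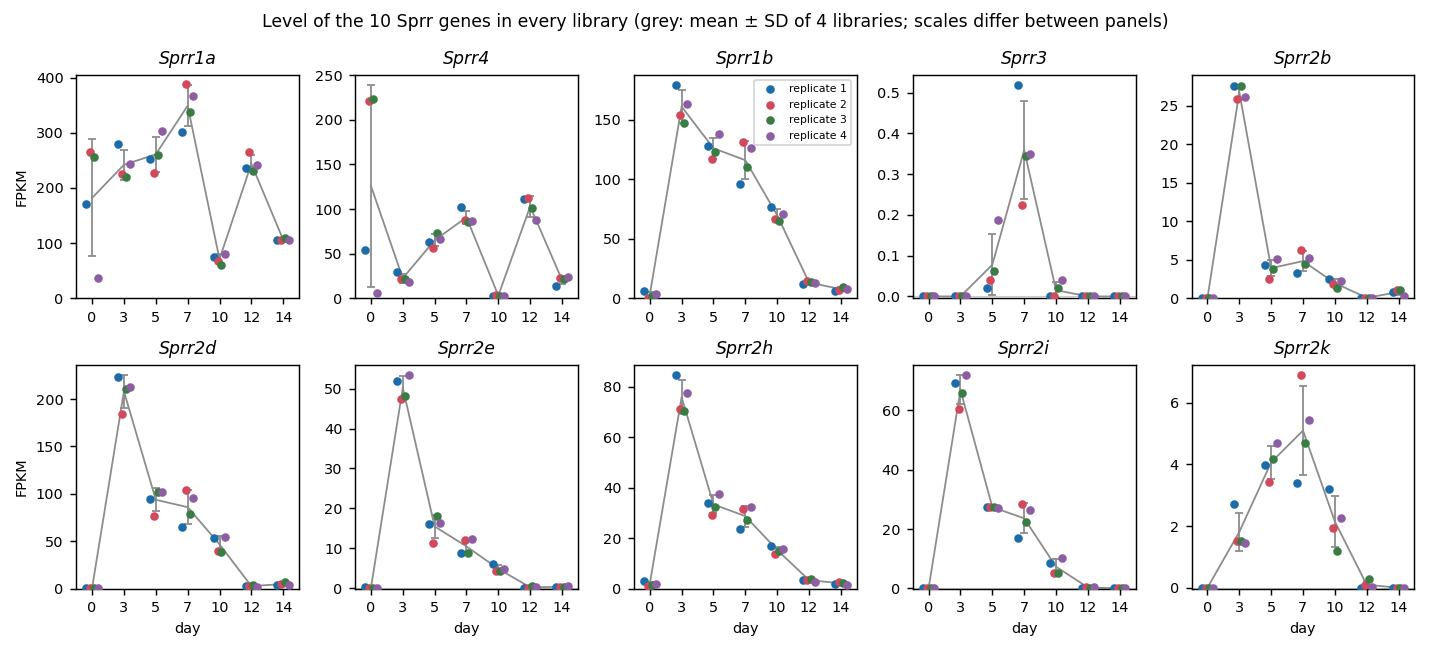
Level (FPKM, y axis, with its own scale in each panel) of the 10 Sprr genes in every library by day (x axis), with points for the libraries and grey lines for the mean ± SD of 4 libraries. Sprr1b and 5 of the 6 Sprr2 genes have their highest mean on day 3, Sprr2k and Sprr3 have it on day 7, and the means of Sprr1a and Sprr4 are at 71 and 3.09 FPKM on day 10 between higher values on days 7 and 12.

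Among the Sprr2 genes, Sprr2d reached the highest level. Its 4 control libraries were at 0.865, 0.471, 0.561 and 0.96 FPKM, and those of day 3 at 223, 184, 211 and 213 FPKM, which was 303-fold higher (log2 8.24 ± 0.26, SE). Sprr2d was at 94.8, 76.1, 102 and 102 FPKM on day 5, at 64.5, 104, 78.8 and 95.7 FPKM on day 7 and at 53.8, 39.6, 38.7 and 54.6 FPKM on day 10, so that the libraries of days 5 and 7 overlapped and those of day 10 lay below both. On day 12 it was at 2.41, 3.03, 3.22 and 1.69 FPKM, and on day 14 at 3.82, 4.51, 7.23 and 3.37 FPKM, all of them still above the control libraries.

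Sprr2i and Sprr2e, the pair most alike in sequence, both had their highest mean on day 3 and lower means on days 5, 7 and 10. Sprr2i had 0.04 to 0.165 FPKM on day 0, from 8 counts in the 4 control libraries together, and 60.4 to 71.7 FPKM on day 3, or 786-fold more (log2 9.62 ± 0.31). It stood at 27.1 to 27.5 FPKM on day 5, 17.1 to 28.5 FPKM on day 7 and 5.18 to 10.1 FPKM on day 10. Sprr2e had 0 to 0.317 FPKM on day 0 and 47.5 to 53.3 FPKM on day 3, or 457-fold more (log2 8.84 ± 0.36). This log2 value ranged from 8.42 to 10.24 when single libraries were left out, the highest without control replicate 1. Sprr2e then had 11.3 to 18.1 FPKM on day 5 and 4.27 to 6.11 FPKM on day 10. Sprr2h was the most abundant Sprr2 gene of the control skin, at 1.05 to 3.13 FPKM, and had the smallest change of the 6 on day 3, 41.8-fold (log2 5.39 ± 0.21) to 70.3 to 84.6 FPKM. The level of Sprr2h relative to Sprr2d was 2.63 ± 0.774 on day 0, between 0.332 and 0.366 on days 3 to 10, 1.32 ± 0.143 on day 12 and 0.451 ± 0.125 on day 14. Sprr2h was therefore above Sprr2d in all control libraries and below it in all libraries of days 3 to 10 and 14.

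Sprr2b had 1 count in the 4 control libraries together, in replicate 4, and was at 27.6, 25.9, 27.6 and 26.2 FPKM on day 3. The ratio of its counts to day 0 was 3030, with a 95% counting interval of 544 to 120000, and such intervals, here and below, cover counting error only. Its fitted log2 change of 11 ranged from 10.69 to 12.65 when single libraries were left out, and the highest value, without control replicate 4, is set against controls with no count and is no bound. Between days 3 and 5 the fitted change of Sprr2b was the largest of the 5 Sprr2 genes that had their highest mean on day 3. It was at 4.32, 2.55, 3.75 and 5.06 FPKM on day 5, lower by 2.79 ± 0.23 on the log2 scale, against 1.16 ± 0.16 for Sprr2d, 1.3 ± 0.16 for Sprr2i, 1.2 ± 0.16 for Sprr2h and 1.71 ± 0.21 for Sprr2e. The level of Sprr2b relative to Sprr2d was 0.123 to 0.141 in the libraries of day 3 and 0.0335 to 0.0496 in those of day 5. It was at 3.33, 6.3, 4.47 and 5.21 FPKM on day 7, at 2.44, 1.89, 1.38 and 2.21 FPKM on day 10 and at 0.0713, 0.0704, 0.0706 and 0.0358 FPKM on day 12, from 7 counts in all. On day 14 Sprr2b was at 0.773, 1.07, 1.12 and 0.261 FPKM, from 88 counts and without overlap with day 12.

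Sprr2k, the Sprr2 gene next to Sprr1b, had no count on days 0 and 14. A count of 0 in 4 libraries allows up to 3 counts, so Sprr2k was at least 62.2-fold higher on day 3, at least 139-fold higher on day 5, at least 169-fold higher on day 7 and at least 68.3-fold higher on day 10. Unlike the other 5 it had its lowest mean of these days on day 3, at 2.73, 1.52, 1.52 and 1.44 FPKM, where it overlapped day 10. It was at 3.99, 3.42, 4.18 and 4.7 FPKM on day 5, all above day 3 (log2 1.16 ± 0.33), and at 3.41, 6.89, 4.69 and 5.43 FPKM on day 7. The level of Sprr2k relative to Sprr2d was 0.00677 to 0.0122 on day 3 and 0.0528 to 0.066 on day 7. The last days also set the Sprr2 genes apart, since from day 12 to day 14 Sprr2b and Sprr2d were higher without overlap, Sprr2e and Sprr2h overlapped, and Sprr2i was lower, with 2 counts on day 14 in all (ratio 0.06, 95% counting interval 0.00699 to 0.233).

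Sprr1b was the gene of the SPRR1 pair that followed the Sprr2 genes. It was at 6.27, 0.547, 1.6 and 3.78 FPKM on day 0, higher in replicates 1 and 4, in which Sprr1a was lower. It was at 179, 154, 147 and 163 FPKM on day 3, 55.1-fold higher (log2 5.78 ± 0.3), and this log2 value ranged from 5.43 to 6.48 when single libraries were left out. Sprr1b stayed at 128, 117, 123 and 138 FPKM on day 5 and at 95.9, 131, 110 and 126 FPKM on day 7, and was at 76.3, 66.8, 65 and 71 FPKM on day 10. All these libraries lay above the control range. On day 12 it was at 12.2, 14.8, 13.5 and 12.9 FPKM, still above day 0, and on day 14 at 6.09, 7.37, 9.7 and 7.71 FPKM, where it overlapped day 0. Day 10 kept 43.4% of the mean of day 3 for Sprr1b, against 22.5% for Sprr2d, 20.1% for Sprr2h, 11% for Sprr2i, 9.75% for Sprr2e and 7.37% for Sprr2b.

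Sprr1a had the highest mean of the 10 genes on every day, with libraries that overlapped those of Sprr4 on day 0, Sprr2d on day 3 and Sprr1b on day 10. It was at 171, 265, 257 and 36.7 FPKM on day 0, so that control replicates 1 and 4 were below all libraries of days 3 to 7. Sprr1a was at 280, 226, 219 and 244 FPKM on day 3, at 252, 228, 260 and 304 FPKM on day 5 and at 302, 388, 337 and 367 FPKM on day 7. Days 3 and 5 overlapped the control libraries, and day 7 lay above them (log2 0.93 ± 0.29, with a range of 0.59 to 1.17 when single libraries were left out). On day 10 Sprr1a was at 74.4, 68.1, 60.1 and 81.2 FPKM, without overlap with any other day of healing and lower than on day 7 by 2.35 ± 0.3 on the log2 scale. It was at 237, 266, 230 and 242 FPKM on day 12, higher than on day 10 by 1.69 ± 0.29, and at 105, 106, 109 and 106 FPKM on day 14. The change from day 0 to day 12 was 0.27 ± 0.28 and turned to -0.05 without control replicate 4, and to -0.24 against control replicates 2 and 3 alone, so no direction can be given.

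Sprr4, whose gene model lies beside Sprr1a and holds only the coding sequence, took a course like that of Sprr1a with wider swings. Its control libraries were at 53.7, 221, 223 and 5.9 FPKM and thus spanned most of the range seen during healing. Sprr4 was at 29.6, 21.2, 21.5 and 18.3 FPKM on day 3, at 63.1, 56.9, 73.6 and 66.8 FPKM on day 5 and at 102, 88.3, 85.9 and 87 FPKM on day 7. Day 3 overlapped the control libraries, and days 5 and 7 each lay above the day before without overlap. On day 10 it was at 3.02, 3.73, 2.74 and 2.85 FPKM, below all other libraries of the series and lower than on day 7 by 4.92 ± 0.62 on the log2 scale. It was at 111, 113, 101 and 88 FPKM on day 12, higher than on day 10 by 4.97 ± 0.62, and at 13.6, 22.5, 22.1 and 24.2 FPKM on day 14. Against day 0 the fitted change was -2.42 ± 0.5 on day 3 and -5.4 ± 0.62 on day 10. The changes for days 5, 7 and 12 were -0.91, -0.47 and -0.43. These last 3 changed sign or came to 0 when log2(FPKM + 0.1) was fitted with limma (0.04, 0.52 and 0.7), and came to -1.72, -1.29 and -1.24 against control replicates 2 and 3 alone, so their direction depended on the scale and their size on the control libraries.

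The SPRR1 pair was compared within libraries, where both genes come from the same RNA. The level of Sprr1b relative to Sprr1a was 0.00207 to 0.103 in the controls. It was 0.64 to 0.68 on day 3, then 0.453 to 0.513 (day 5) and 0.317 to 0.343 (day 7), and was highest at day 10 with 0.875 to 1.08. The ratio was back at 0.0515 to 0.0586 by day 12 and at 0.058 to 0.0889 by day 14. It was above the control range on days 3 to 10 and within it on days 12 and 14. Being within it rested on control replicate 4 (Sprr1b at 3.78 and Sprr1a at 36.7 FPKM), since the other controls lay below days 12 and 14. Sprr1a and Sprr1b had overlapping levels on day 10 alone.

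Sprr3, a member best known from the oesophagus and other internal epithelia, was barely present. It had no count on days 0, 3, 12 and 14, 1, 2, 3 and 9 counts on day 5, 25, 11, 17 and 17 counts on day 7, and 3 counts in all on day 10. Its highest level, 0.518 FPKM, was in replicate 1 of day 7. Day 7 was at least 22.6-fold above day 0 and day 5 at least 5.02-fold above it, with both resting on these few counts.

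**Figure D3:**
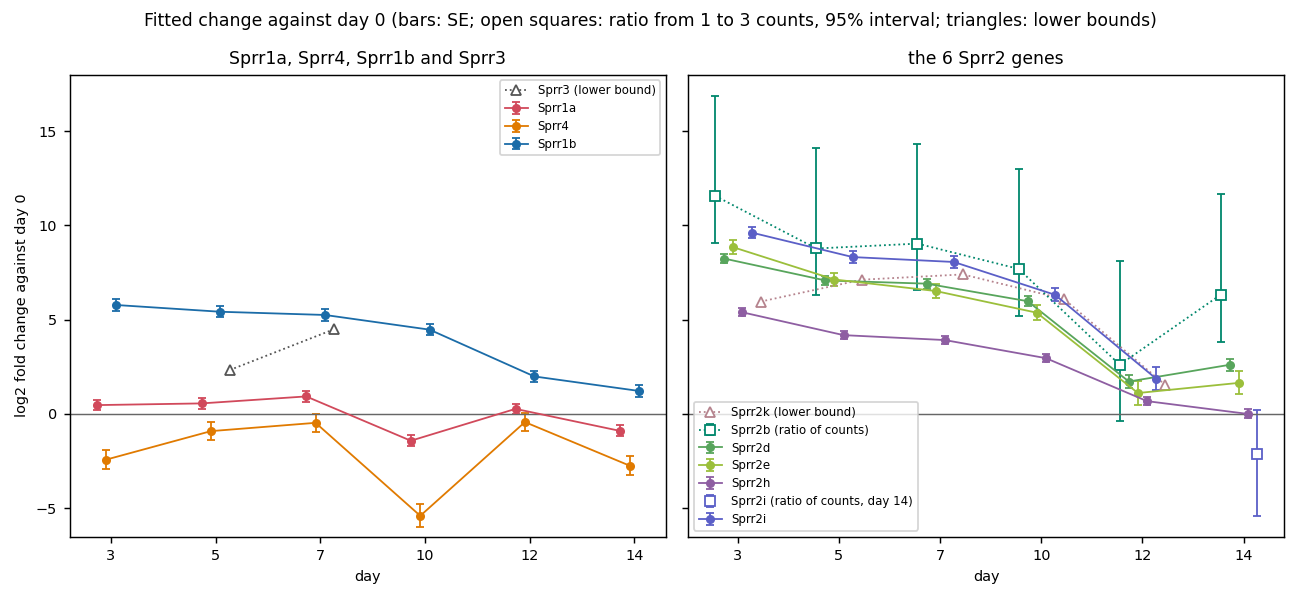
Log2 fold change against day 0 (y axis) of the 10 Sprr genes on each later day (x axis), with filled points and bars for the fitted value ± SE, open squares and bars for ratios from 1 to 3 counts with their 95% counting interval, and open triangles for lower bounds of genes with no count on day 0. Sprr1b and the Sprr2 genes lie at 2.96 or above on days 3 to 10, and Sprr1a and Sprr4 lie at 0.93 or below on all days, with the lowest value, -5.4, for Sprr4 on day 10.

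Between neighbouring days the genes moved in different company. From day 3 to day 5, 6 of the 10 genes were lower without overlap (14.7% of all genes) and 3 were higher (14.1%), namely Sprr2k, Sprr3 and Sprr4. From day 5 to day 7, 8 genes overlapped and 2 were higher (14.2%), namely Sprr3 and Sprr4. From day 7 to day 10 all 10 genes were lower without overlap, against 20.1% of all genes. From day 10 to day 12, 7 genes were lower (23.5%) and 2 were higher (22.3%), Sprr1a and Sprr4. From day 12 to day 14, 4 genes were lower (26%), namely Sprr1a, Sprr1b, Sprr2i and Sprr4, and 2 were higher (20.7%), Sprr2b and Sprr2d.

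Along the chromosome Sprr1a and Sprr4 were also the last genes at one end of the cluster. Sprr1a and Sprr4 were 14.4 kb apart, with Sprr3 at 25.2 kb on the near side of Sprr1a. Sprr2k and Sprr1b, which face each other on opposite strands, were 2.88 kb apart and both lay above their control levels on days 3 to 10, at 1.19 to 6.89 FPKM for Sprr2k and at 65 to 179 FPKM for Sprr1b. The other gaps between neighbouring members ranged from 11.3 to 32.2 kb. Position and course were compared for these 10 genes only, and 4 further Sprr2 rows of the table lay among or beside the Sprr2 genes.

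**Figure D4:**
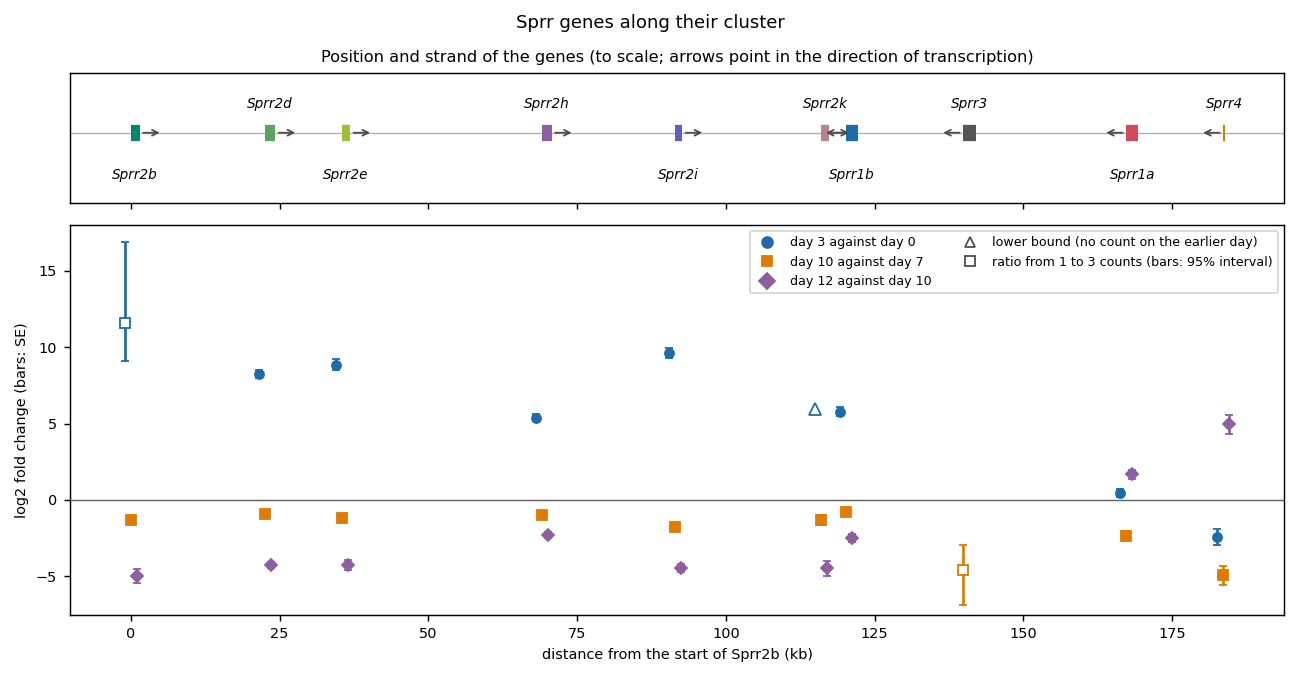
Upper panel, position and strand of the 10 Sprr genes to scale. Lower panel, log2 fold change (y axis) at the distance of each gene from the start of Sprr2b (x axis, kb) for day 3 against day 0, day 10 against day 7 and day 12 against day 10, with bars for SE, open squares with 95% counting intervals where 1 to 3 counts were behind a ratio and an open triangle for a lower bound. All 10 genes are lower on day 10 than on day 7, whereas from day 10 to day 12 Sprr1a (1.69) and Sprr4 (4.97) at the right end are higher and the 6 Sprr2 genes and Sprr1b are lower.

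Those 4 rows, Sprr2a1, Sprr2a2, Sprr2a3 and Sprr2f, are no members and were tested. With edgeR's quasi-likelihood test and Benjamini-Hochberg adjustment over all genes, all 4 were higher than on day 0 on days 3, 5, 7 and 10 (on day 3, log2 7.91 ± 0.45 with adjusted p = 1e-14 for Sprr2f and 4.89 ± 0.32 with adjusted p = 1.5e-13 for Sprr2a3), and none passed on days 12 and 14, where the adjusted p of Sprr2a3 on day 14 was 0.00044 with a log2 change of 1.49, just short of the fold limit. Without control replicate 1, Sprr2a1 (1.6) and Sprr2a3 (2.2) were called higher on day 14. Without control replicate 4, Sprr2a3 (1.76) was called on day 14 and Sprr2f (2.49) on day 12. Against control replicates 2 and 3 alone, Sprr2a3 was called on days 12 (1.87) and 14 (3.24) and Sprr2a1 on day 14 (1.89). Sprr2a1 and Sprr2a2 overlap in the annotation, so their counts are uncertain.

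The other genes of the pathway were taken from 3 lists, of 30 cornified envelope precursors, 5 genes for transglutaminases and their inhibitor, and 20 transcription factors of keratinocyte differentiation and stress. These lists, like those of the cell markers, were chosen with earlier results of these data known. Their calls and adjusted p-values are therefore a description and no independent test. A gene was called by edgeR's quasi-likelihood test where its adjusted p was under 0.05 and its log2 change over 1.5 in either direction. Of these 55 genes, 13 were called higher and 9 lower on day 3, against 6.44% and 12.3% of all genes. The numbers were 11 higher and 3 lower on day 5 (5.52% and 8.22% of all genes), 9 higher and 0 lower at day 7 (4.52% and 4.64%), and 9 higher and 5 lower on day 10 (4.22% and 5.02%). They were 7 higher and 0 lower for day 12 (3.69% and 3.38%) and 4 higher and 5 lower for day 14 (5.1% and 8.71%). On day 7 the 14 genes that were lower at adjusted p under 0.05 all missed the fold limit, as did 12 on day 12. The day 14 numbers rested on single control libraries, with 9 genes higher without control replicate 1 and 3 lower without control replicate 4. Against control replicates 2 and 3 alone, the numbers called higher were 14, 12, 12, 9, 9 and 7 from the earliest to the latest day, and those called lower were 11, 3, 1, 5, 0 and 5.

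The Lce3 genes, late cornified envelope genes that are known to be induced in disturbed epidermis, were higher on the same days as the Sprr2 genes. All 6 of them rose on days 3, 5, 7 and 10, with a median log2 change of 7.09, 6.07, 6.42 and 5.98, and 3 on day 12 and 2 on day 14 were still higher. Of the others, Lce3b (3.09 and 2.84) and Lce3c (2.06 and 1.53) were called on both of these days without control replicate 1. Lce3b was 7.73 ± 0.45 higher on day 3 (adjusted p = 1.5e-14), from 0.0681 to 15.1 FPKM. Lce3a had 1 count and Lce3e 2 counts in the control libraries together, and their ratios on day 3 were 899 (95% counting interval 161 to 35600) and 365 (101 to 3020). From day 7 to day 10 the fitted log2 changes ran from -1.74 to -0.93 for the Sprr2 genes. Over the same days Lce3a was at -1.23 ± 0.28 (adjusted p = 0.0011, short of the fold limit), and the other 5 Lce3 genes were at -0.62 to -0.11 and did not pass. From day 10 to day 12 all 6 Lce3 genes fell, by 2.62 to 5.12 on the log2 scale, as the Sprr2 genes were lower over the same days.

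The 12 Lce1 genes, which belong to normal differentiation, had a median log2 change of -0.66 on day 3, with Lce1m lower (-2.34 ± 0.12, adjusted p = 1.3e-15) and Lce1g higher (1.57 ± 0.21, adjusted p = 1.9e-07), a call lost without control replicate 2 (1.38) or 3 (1.45). Among the 12 precursors outside the Lce families, 0 were called higher and 4 lower on day 3, and Cnfn and Rptn passed the adjusted p short of the fold limit (log2 1.3 ± 0.12 and 1.05 ± 0.32). Crnn, encoding cornulin of the upper epidermis, fell by 6.72 ± 0.66 on the log2 scale, the most of the 12 (adjusted p = 7.4e-10). Lor, the main precursor loricrin, fell by 1.94 ± 0.13, Flg2 (filaggrin-2) by 1.98 ± 0.18 and Ppl (periplakin) by 1.74 ± 0.09. Ivl, encoding involucrin, was at 9.98 ± 1.44 FPKM on day 3 against 24.3 ± 10.5 FPKM on day 0 and did not pass the fold limit. Rptn, encoding repetin, was called higher on days 5, 7 and 10, with log2 changes of 1.78 ± 0.32, 2.92 ± 0.33 and 2.31 ± 0.33. Its day 5 call was lost without control replicate 4 (1.49) and against control replicates 2 and 3 alone (1.05). Flg, encoding filaggrin, was called higher from day 7 to day 14, by 2.04 to 2.79.

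Crnn resembled Sprr4 in its levels. It was at 16, 6.16, 7.59 and 0.815 FPKM in the control libraries, at 0.013 to 0.117 FPKM on day 3, 0.0902 to 0.251 FPKM on day 5, 16.4 to 23.6 FPKM on day 7, 0.406 to 0.577 FPKM on day 10, 21.4 to 30 FPKM on day 12 and 9.18 to 14.1 FPKM on day 14. Like Sprr4 it was lowest among the controls in replicate 4, and unlike Sprr4 it was still near 0 on day 5. Neighbouring days were compared by edgeR's quasi-likelihood test, a comparison chosen after the values were seen. Crnn rose by 6.91 ± 0.57 from day 5 to day 7 (adjusted p = 2.5e-10), where Sprr4 was higher by 0.44 ± 0.46. Crnn then fell by 5.5 ± 0.49 from day 7 to day 10 (adjusted p = 1.7e-09) and rose by 5.7 ± 0.49 from day 10 to day 12 (adjusted p = 3.5e-10). From day 12 to day 14 Crnn was not called (-1.1 ± 0.37), and Sprr4 was lower by 2.31 ± 0.5. Of the 55 genes, 2 (Crnn and Flg2) were lower and 0 higher from day 7 to day 10, against 2.98% and 1.24% of all genes. From day 10 to day 12, 8 were higher and 7 lower, against 3.32% and 2.36% of all genes. The 8 were Flg2, Crnn, Tgm1, Tgm3, Cst6, Fosb, Grhl1 and Zfp750, and the 7 were the 6 Lce3 genes and Rptn.

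**Figure D5:**
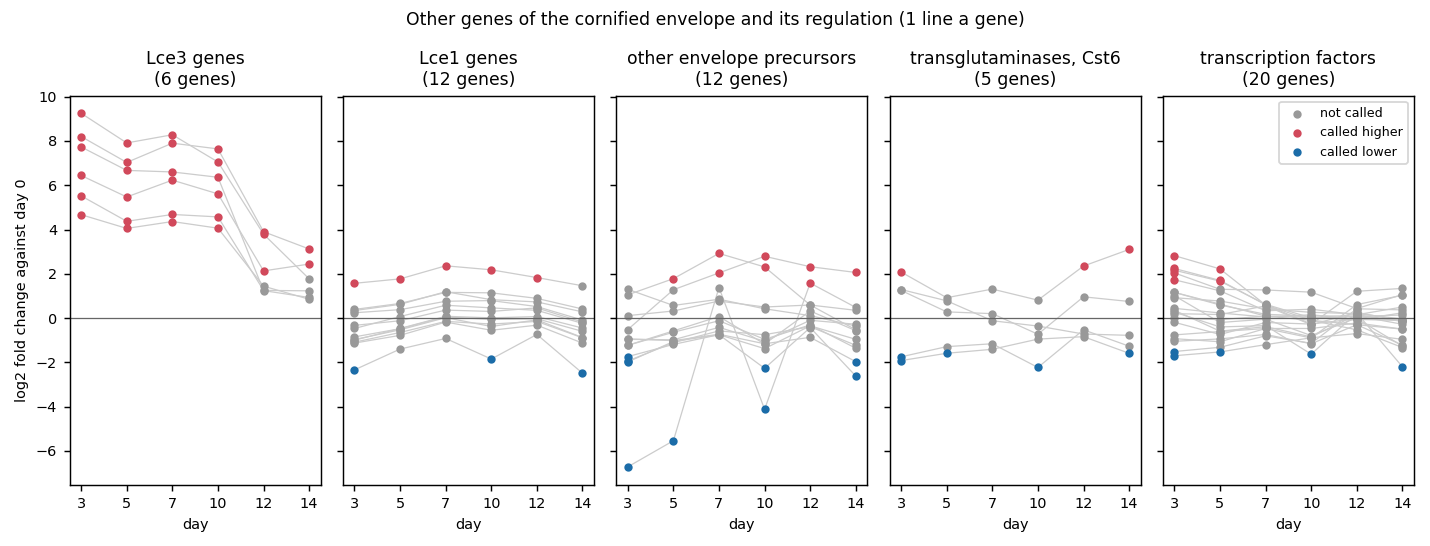
Log2 fold change against day 0 (y axis) by day (x axis) for each of the 55 genes of the 3 lists, with a grey line for each gene and coloured points where the gene was called higher or lower by edgeR's quasi-likelihood test (adjusted p under 0.05 and log2 change over 1.5). The 6 Lce3 genes are called higher on each of days 3 to 10, and Crnn is called lower on days 3, 5 and 10 and higher on day 12, where it is at 1.22 without control replicate 4.

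Among the enzymes that crosslink the envelope, Tgm3 was higher on day 3 (2.08 ± 0.2, adjusted p = 6.5e-10), day 12 and day 14, and Tgm5 was lower on day 3 (-1.92 ± 0.15), day 5 and day 14 (both -1.59 ± 0.15), although the calls of days 5 and 14 missed the fold limit without control replicate 4 (-1.37 and -1.31). Cst6, encoding the protease inhibitor cystatin M/E that limits this pathway, was lower on day 3 (-1.75 ± 0.24) and on day 10 (-2.23 ± 0.25), and its day 3 call was lost without control replicate 2 (-1.49) or 3 (-1.48). Of the transcription factors, 5 were higher and 2 lower on day 3. The 5 included the AP-1 subunits Fosl1 (2.82 ± 0.32, adjusted p = 1e-08), Fos (2.24 ± 0.1) and Junb (2.16 ± 0.11), with the ETS factor Elf3 (2.04 ± 0.31) and Cebpb (1.73 ± 0.11), and the 2 were Grhl1, at -1.51 just past the fold limit and short of it without control replicate 1, 2 or 3, and the POU factor Pou2f3 (-1.7 ± 0.1, adjusted p = 2.5e-14). No factor of the list was called in either direction on days 7 and 12, although Fosl1 was called higher on day 7 against control replicates 2 and 3 alone (2.15).

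Keratins that wounded epidermis switches on moved with the Sprr2 genes and Sprr1b. Krt6a, Krt6b and Krt16 were higher on days 3 to 10 (Krt6b by 6.43 ± 0.59 on day 3, adjusted p = 1.6e-10), Krt6b was also higher on day 12 (1.77 ± 0.5, adjusted p = 0.005), a call lost without control replicate 2 (1.38) or 3 (1.4), and Krt17 was not called until day 14. Krt6b, like Sprr1b, was higher in control replicates 1 and 4 (10.5 and 3.34 FPKM) than in replicates 2 and 3 (0.253 and 0.398 FPKM). Krt5, a keratin of basal cells, was at 491 to 650 FPKM on day 3 and 602 to 1400 FPKM on day 0, and Krt14 at 947 to 1220 FPKM and 490 to 1220 FPKM, with overlap in both. Set against the sum of Krt5 and Krt14 in place of all counts, the median log2 change of the 10 genes was 6.7 on day 5 and 7.16 on day 7, a scaling under which the median of all genes was 0.19 and 0.27.

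Markers of other cells changed over the same days. The 7 neutrophil markers summed to 16.6 to 63.7 FPKM on day 0, 7650 to 9760 FPKM on day 3, 436 to 493 FPKM on day 10 and 26.2 to 35.5 FPKM on day 12, and all 7 were called higher on days 3, 5 and 7. The 6 suprabasal keratinocyte markers, among them Krt1 and Krt10, summed to 961 to 1110 FPKM on day 0, 265 to 382 FPKM on day 3, 539 to 611 FPKM on day 5, 806 to 989 FPKM on day 7, 454 to 556 FPKM on day 10, 960 to 1060 FPKM on day 12 and 386 to 473 FPKM on day 14. Both this sum and Sprr4 were lower on days 3, 10 and 14 than on days 7 and 12. Hair follicle markers were lower on days 3 and 5 (13 of 13 genes) and on day 10 (10 of 13), and higher on day 12 (13 of 13) and day 14 (11 of 13), with sums of 2.54 to 5.94 FPKM on day 3 and 2720 to 3650 FPKM on day 12. The 6 skeletal muscle markers were lower in 6 of 6 genes on days 3, 5, 7 and 14, with sums of 9790 to 15900 FPKM on day 0 and 2170 to 2810 FPKM on day 3. The 7 macrophage markers summed to 1500 to 2080 FPKM on day 0, 3710 to 3860 FPKM on day 3 and 814 to 905 FPKM on day 14, where 5 of 7 were called lower. The part of these cells in the Sprr levels was not tested.

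The genes whose log2 CPM followed the mean of the 10 Sprr genes most closely over the 28 libraries included globin genes. Among 10730 genes with a mean of at least 10 CPM, the globin genes Hbb-bt and Hbb-bs had Pearson's r of 0.984 and 0.982, followed by Slc37a2 (0.977), Alas2, which encodes an enzyme of haem synthesis in red cells (0.976), Rbp2 (0.973), Tpm4 (0.973), the protease inhibitor Slpi (0.972) and the neutrophil chemokine Cxcl5 (0.969). The libraries share their days, so such values are a description. For single members, chosen after the values were seen, the nearest gene was Krt6b for Sprr1b (0.99), Cxcl5 for Sprr2h (0.99), S100a8 for Sprr2e (0.987), Klk10 for Sprr1a (0.929) and Casp1 for Sprr4 (0.907).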

How the data were processed

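The authors deposited a table of raw read counts per gene and FPKM values for the same 28 libraries. Per the labels and the study's methods, RNA was extracted with TRIzol and libraries were made with a VAHTS Universal kit and sequenced. The submitters' processing notes name fastp, R 3.2.0 and mm10, and the aligner, the counter and the annotation are not given in the sources used here. The deposited FPKM equalled counts divided by gene length and library total. All columns were matched to libraries by name.

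Counts were fitted with edgeR 4.0.16 (quasi-likelihood, TMM scaling, filterByExpr) in R 4.3.3, with the 7 days as groups in 1 fit and no covariate, with Benjamini-Hochberg adjustment over 18107 genes. A gene was called at an adjusted p under 0.05 and a log2 change over 1.5, the fold limit of the study. The fits were tested on simulated data. limma 3.58.1 was used on log2(FPKM + pseudocount) and DESeq2 1.42.0 on counts as alternatives, besides other scalings, no filter and left-out libraries. The members and all lists were chosen with earlier results of these data known. Named were all members, the other Sprr genes, the genes of the pathway lists and the marker genes. The symbol Loricrin was not in the table, and Lor was.

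Same-numbered libraries of different days did not deviate together (no correlation over 0.1). No library was a duplicate of another of the same day (42 pairs), and pairs across days were not compared for this. Coding sequences and promoters were read with Biopython 1.88 from the mm10 genome and RefSeq. No sequence of the proteins was used here.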

Additional observations from a re-analysis of the deposited data

Results flagged for a closer look

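Among 64 groups of 4 libraries of the 10 Sprr genes, 5 held a library far from the other 3 in log2 CPM, where chance gives 3.2. For Sprr2b, replicate 4 of day 0 was at -3.67 against -4.3 in the others, which is 1 count against none, and replicate 4 of day 12 was at -3.76, from 1 count, against -3.38 to -3.36. For Sprr2i, replicate 3 of day 14 was at -3.33, from 2 counts, against -4.3 in the others. For Sprr2k, replicate 1 of day 3 was at 0.92, from 68 counts, against 0.06 to 0.12. For Sprr4, replicate 1 of day 14 was at 1.59, from 122 counts, against 2.27 to 2.38.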

How the results depend on the processing

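From day 3 to day 12, the median log2 change of the 10 Sprr genes was 4.78, 2.98, 2.97, 2.01 and 0.47 with limma on log2(FPKM + 1), and 5.74, 5.27, 5.56, 4.32 and 0.83 with log2(FPKM + 0.1), since a pseudocount lowers the change of genes near 0. In fits of the 8 libraries of a pair of days it was 8.22, 7.06, 5.38 and 0.68 on days 3, 5, 10 and 12. Summing all Sprr2 rows of the table, members or not, to 1 value left 5 values. Their median was 0.47, 5.02, 5.25, 2.8 and 0.27 from day 3 to day 12, and 5.02 and 2.8 were the values of Sprr3. With genes without counts at their bound the median of the members was 5.96, 5.88, 5.37 and 0.61 on days 3, 7, 10 and 14. Per Krt5 and Krt14 it was 6.7, 7.16 and 1.85 on days 5, 7 and 12. Against control replicates 2 and 3 alone, a setting chosen after seeing the data like that of the bounds, it was 7.95, 7.24, 7.27, 6.02 and 1.89 from day 3 to day 12.

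Of the 55 pathway genes, 1 was lower on day 5, 4 were higher on day 12, and 2 were higher and 3 lower on day 14 with limma on log2(FPKM + 1), 3 were higher on day 12 with the 8 libraries alone, and 1 was lower on day 7 and 7 higher on day 14 against control replicates 2 and 3. By the adjusted p alone, 25, 26, 25, 19, 20 and 15 were higher and 24, 23, 14, 26, 12 and 26 lower, in the order of the days.

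When single libraries were left out, the medians ranged from 6.76 to 7.44 (day 3), 5.88 to 6.64 (day 5), 6.43 to 7.08 (day 7), 4.53 to 5.61 (day 10), 1.13 to 1.86 (day 12) and 0 to 0.22 (day 14), and were highest without control replicate 1. On day 14, 4 to 9 genes were higher and 3 to 6 lower.

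With a replicate block the medians were 7.02, 6.26, 6.72, 4.93, 1.42 and 0, and 10 in place of 9 genes were higher on day 7. The libraries share only a number, and the block moved no other count of the lists.

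No value past the limit changed its sign. Apart from the left-out libraries, 172 summary values and 547 values of single Sprr genes were close to the reported ones and 50 and 100 moved. Genes with a few counts per library, such as Sprr3 and Sprr2b on day 0, limit what can be said of their size.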
